A study of Mus musculus with 68 samples.

Results

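The genes described here are 8 members of the BCL2 family, which sets whether a cell keeps its mitochondria intact or dies by apoptosis. They were taken by name, with no threshold on a measured value, from the 24059 gene symbols listed in both deposited count tables: Bcl2, Mcl1, Bax, Bak1, Bcl2l11 (the protein BIM), Bid, Bbc3 (PUMA) and Pmaip1 (NOXA). All 8 were present in both tables. Caspases, which act after the family, and further genes of the pathway are given as context from separate lists. The study measured RNA in mouse bone marrow erythroid cells enriched by flow cytometry, as bulk libraries made with a stranded low-input total RNA kit. A stage series of 38 libraries held BFU-E (3 libraries), CFU-E (5), ERY-I (7, proerythroblasts), ERY-II (4, basophilic), ERY-III (4, polychromatic), ERY-IV (4, orthochromatic), ERY-V (7, reticulocytes) and ERY-VI (4, red cells). A knockout series of 30 libraries held 3 WT and 3 GS-KO libraries in each of 5 gates: the progenitor gates BFU-E and CFU-E, then ERY-I-II, the gate labelled ERY-III-VI (polychromatic and orthochromatic cells by its source name) and last ERY-V-VI (reticulocytes and red cells). What GS stands for is not written out in the labels. It was read as glutamine synthetase, the product of Glul, whose level is given below as the check. No source used here states the strain, age, sex or number of the animals, the promoter or Cre behind the knockout, or a genotype for the stage series.

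The BCL2 family works as a balance at the outer mitochondrial membrane. Pro-survival proteins such as BCL2, MCL1 and BCL-XL hold back the effectors BAX and BAK, which otherwise form pores that release cytochrome c and start the caspases, and BH3-only proteins such as BIM, BID, PUMA and NOXA carry the death signal by binding either side. In the erythroid lineage, erythropoietin signalling is known for keeping progenitors alive, MCL1 is known to be needed by early progenitors, and BCL-XL (Bcl2l1) is known for the survival of later, hemoglobin-making erythroblasts.

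What the family shares in sequence is the BH3 region, a short helix that fits into a groove of the pro-survival proteins. It is shown here because it is the element by which the members described below bind each other. The coding sequences of GENCODE M21 were translated and searched for leucine, then alanine, arginine or lysine, any 2 residues, glycine or alanine, and aspartate. All 8 members matched, against 1190 of 22075 protein-coding genes (5.39%), so the pattern alone does not define the family, and a match is a description of the letters. The lines below give the coding DNA around the match, 5′ to 3′ on the coding strand, with the codons of the leucine, the glycine or alanine, and the aspartate in capitals. The match began at residue 94 of 236 in Bcl2, 194 of 331 in Mcl1, 63 of 192 in Bax, 76 of 209 in Bak1, 150 of 196 in Bcl2l11, 90 of 195 in Bid and 141 of 193 in Bbc3. Bcl2l1 is added as the pro-survival relative that the later sections set beside Bcl2 and Mcl1, with its match at residue 90 of 233.
Bcl2: accCTCcgccgggctGGGGATgacttc
Mcl1: accCTGcggcgcgtgGGCGACggcgtg
Bcl2l1: gcgCTGagagaggcaGGCGATgagttt
Bax: tgtCTCcggcgaattGGAGATgaactg
Bak1: cagCTTgctctcatcGGAGATgatatt
Bcl2l11: gagCTGcggcggatcGGAGACgagttc
Bid: catCTCgcccaaataGGCGATgagatg
Bbc3: cagCTGcggcggatgGCGGACgacctc
Among the printed stretches, Bbc3 alone has an alanine codon in the place where the other 7 have a glycine codon. The leucine and aspartate codons are present in all 8 lines because the search required them. The search also limited the residue after the leucine and the residue before the aspartate to the choices given above. The match of all 8 members is therefore not a test of the family.

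On mouse build mm10 (GENCODE M21), Bcl2 lies at chr1:106538178-106714274 on the minus strand and Mcl1 at chr3:95658788-95663176 on the plus strand. Bax lies at chr7:45461697-45466898 (minus) and Bak1 at chr17:27019810-27029009 (minus). Bcl2l11 lies at chr2:128126038-128162547 (plus), Bid at chr6:120891930-120916853 (minus) and Bbc3 at chr7:16308393-16318205 (plus). Gene-level counts were taken over exons, of which the members hold between 1576 bases (Bax) and 9157 bases (Bcl2). Of these exonic bases, 558 in Bcl2 are shared with the antisense gene D630008O14Rik, 614 in Bak1 with Ggnbp1 on the opposite strand, 628 in Bid with Bcl2l13 on the opposite strand and 192 in Bax with Gm45808 on the same strand. No source used here states the strand setting of the counting, so reads in these bases cannot be assigned with certainty.

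Libraries held 1630863 to 11472763 counts (stage series) or 3131142 to 15806844 counts (knockout series). Levels are given as CPM, a gene's counts per 1000000 counts of its library, so that 1 CPM stood for few reads. Genes of the Y chromosome were detected in replicates 1 to 3 of ERY-V, ERY-I, CFU-E and BFU-E (12 libraries), and Xist in the other 26 stage libraries. The Y-positive triplicates differed by only 1.46 to 8.68 times the variance of counting alone (12 pairs) and the knockout triplicates by 1.3 to 6.38 times (30 pairs), against 8.86 to 316.19 times in other stage pairs (67 pairs). The labels do not say that libraries came from separate animals, so p-values measure the spread between these libraries, which may be technical. The erythroid markers Klf1, Epor, Slc4a1, Alas2, Hba-a1, Hbb-b1 and Tfrc had counts in every group. The 9 neutrophil markers (S100a8, S100a9, Ngp, Camp, Ltf, Elane, Mpo, Lcn2, Retnlg) summed to 4.20 to 29.3 CPM in CFU-E but to 13619 to 14004 CPM in ERY-I replicates 1 to 3, and they are set beside the results they move with. Differences are log2 fold changes with their SE from edgeR's quasi-likelihood test after TMM scaling, with p-values adjusted by Benjamini-Hochberg over all genes tested and called below 0.05. Globin RNA took 0.00280% of counts at the least in BFU-E and up to 71.1% in ERY-VI, so a member's CPM in a late gate can be low while its fold change against other genes is small. Scaling to library totals instead moved the median log2 fold change of all genes from -0.35 to -1.67 in ERY-II against ERY-I and from -0.34 to -2.22 in ERY-VI against ERY-V. The fold changes are therefore relative to the bulk of other RNAs, and where library totals turn a member's direction or end its call, that is stated beside it.

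Across the stage series the members fell into different patterns. Bcl2 RNA was concentrated in BFU-E, and Mcl1 RNA was the highest of the 8 per length of exon in all 8 gates. Bak1, Bid and Bax were high in the progenitors and low from ERY-II on, Bcl2l11 was highest in CFU-E and ERY-I, Bbc3 was low in CFU-E and higher in ERY-II to ERY-IV, and Pmaip1 was near the detection limit throughout. Levels of different genes were compared as CPM per kilobase of exon. On that scale the BFU-E means, in descending order, were 58.6 ± 1.64 for Mcl1, 28.9 ± 1.64 for Bak1 and 22.3 ± 1.75 for Bax (SD, n = 3). Bid followed at 13, and Bcl2 (3.63), Bbc3 (3.25), Bcl2l11 (2.59) and Pmaip1 (0.162) formed the low end. Bcl2 and Bbc3 did not differ beyond their SD there, 3.63 ± 0.362 against 3.25 ± 0.577 CPM per kilobase.

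**Figure D1:**
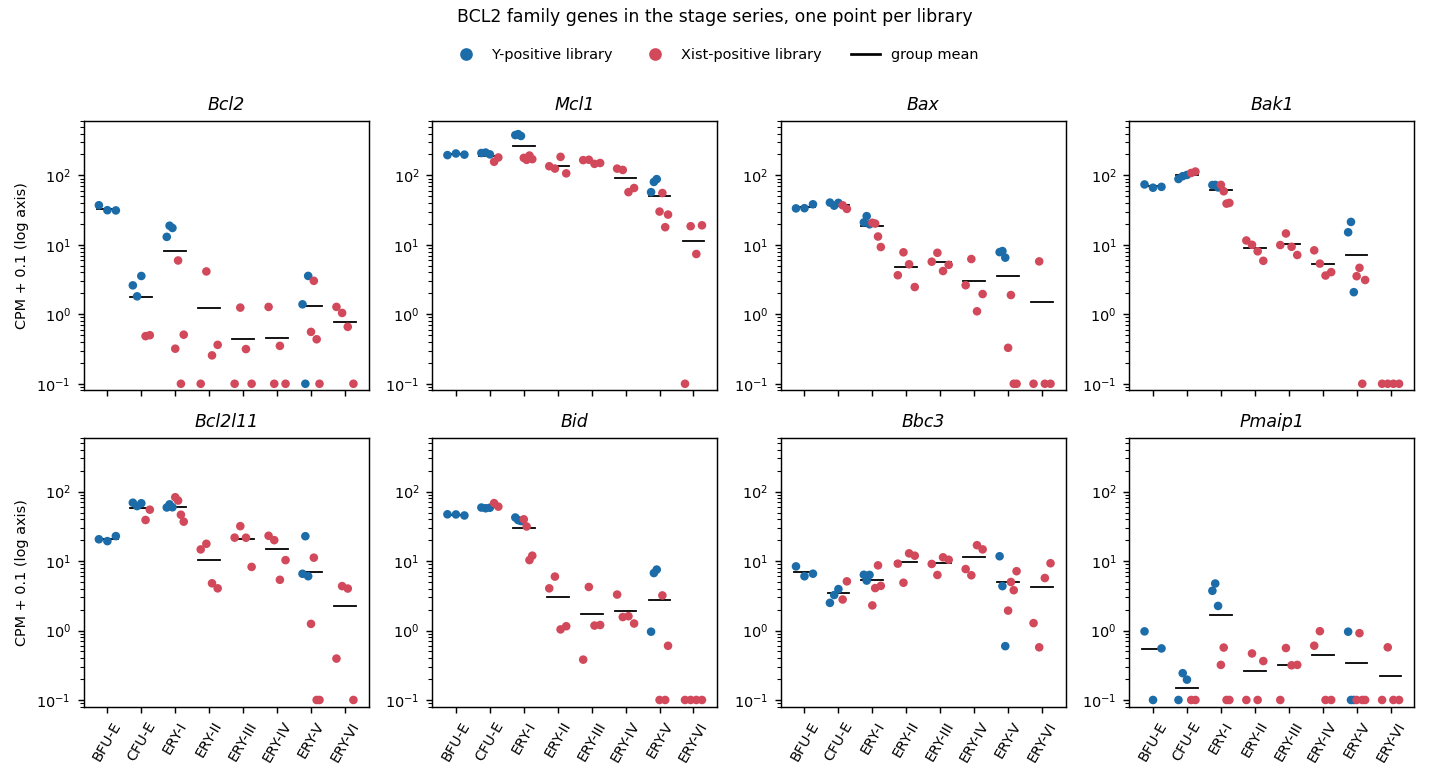
Levels of the 8 members in each of the 38 stage libraries, as CPM plus 0.1 on a log axis, by gate from BFU-E to ERY-VI. Blue points are Y-positive and red points Xist-positive libraries, and the black line is the group mean. Bcl2 is highest in BFU-E and splits by library set within ERY-I, Bak1 and Bid drop between ERY-I and ERY-II, and Pmaip1 stays near the floor of the axis.

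Bcl2 encodes the founding pro-survival protein of the family. Its level was 37, 31.4 and 31.2 CPM in the 3 BFU-E libraries and 2.51, 1.71, 3.46, 0.385 and 0.400 CPM in the 5 CFU-E libraries. Every CFU-E library lay below every BFU-E library by a wide margin. The log2 fold change of CFU-E over BFU-E was -4.04 ± 0.46 (edgeR adjusted p = 0.000348). With each Y-positive triplicate summed into 1 library it was -4.49 and the call was lost (adjusted p = 0.0577). The WT libraries of the knockout series, which share no library with the stage series, gave 29.9, 27.9 and 29.2 CPM in BFU-E and 0.722, 1.41 and 2.40 CPM in CFU-E, a log2 fold change of -4.14 ± 0.18 (adjusted p = 3.07e-38). In bulk libraries, fewer cells holding Bcl2 RNA and less of it per cell cannot be told apart.

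In ERY-I the Bcl2 level split by library set. The Y-positive replicates 1 to 3 had 12.9, 18.8 and 17.4 CPM, and the Xist-positive replicates 4 to 7 had 0.22, 5.85, 0 and 0.409 CPM. All 3 Y-positive libraries lay above all 4 Xist-positive libraries. Summed neutrophil markers moved the same way. They were at 13619 to 14004 CPM in replicates 1 to 3 and 44.4, 1260, 20.1 and 0.409 CPM in replicates 4 to 7. Replicate 5 was the highest Xist-positive library for both Bcl2 and these markers. Monocyte and macrophage markers (1742 to 1800 against 4.66 to 151 CPM) and B cell markers (454 to 473 against 0 to 48.5 CPM) split alike. Mast cell markers (36.7 to 45.2 against 0 to 3.28 CPM) did too, and megakaryocyte markers overlapped. Over all 7 libraries the ERY-I over CFU-E log2 fold change of Bcl2 was 2.44 ± 1.09 (adjusted p = 0.0831), which missed the threshold. With the replicate number as a block it was 2.74 (adjusted p = 0.00161). The Y-positive libraries alone also gave 2.74 (adjusted p = 3.07e-14), and libraries with neutrophil markers under 500 CPM gave -2.52 (adjusted p = 0.0802), the opposite direction. That restriction kept ERY-I replicates 4, 6 and 7, all Xist-positive, but all CFU-E libraries of both sets. Bcl2 in CFU-E was at 1.71 to 3.46 CPM in Y-positive and 0.385 to 0.400 CPM in Xist-positive libraries. Library set and neutrophil markers therefore cannot be told apart in this value. The part of neutrophil or other blood cell transcripts in the Bcl2 level was not tested.

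From ERY-II on, Bcl2 was at or below 4.04 CPM in every stage library. The ERY-II libraries had 0, 4.04, 0.156 and 0.263 CPM, the ERY-III libraries 0, 1.15, 0.216 and 0 CPM and the ERY-IV libraries 1.18, 0, 0.251 and 0 CPM. The highest of these, ERY-II replicate 2, rested on 11 counts and was also the ERY-II library highest in neutrophil markers (2100 CPM, the other 3 between 2.37 and 27.5 CPM). In ERY-V the lowest, median and highest values were 0, 0.458 and 3.47 CPM, and ERY-VI had 1.18, 0.946, 0.560 and 0 CPM. These late groups overlapped, and differences between them were not detectable at this depth.

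**Figure D2:**
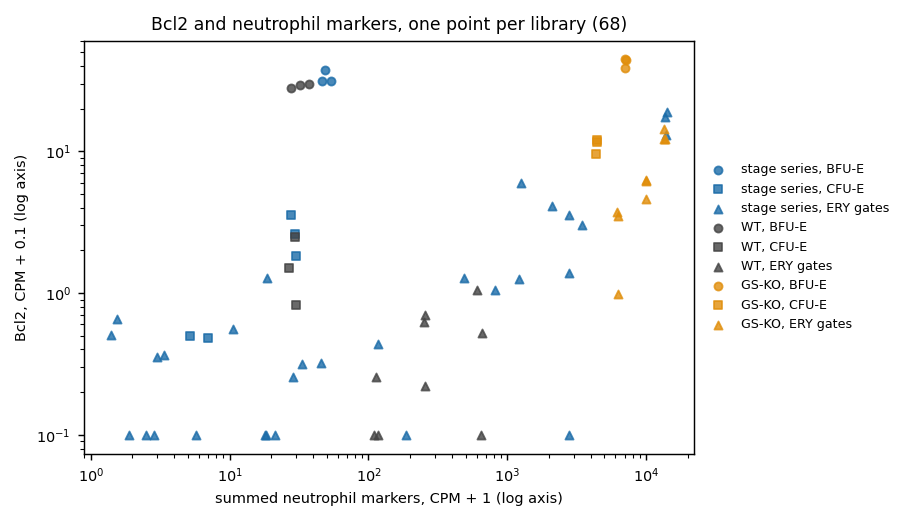
Bcl2 level (CPM plus 0.1) against the summed level of the 9 neutrophil markers (CPM plus 1) in all 68 libraries, both axes log. Colours separate the stage series, WT and GS-KO, and shapes separate BFU-E, CFU-E and the ERY gates. BFU-E libraries are high in Bcl2 at low neutrophil marker levels in the stage series and WT, while outside BFU-E every library above 6 CPM of Bcl2 is a Y-positive ERY-I library or a GS-KO library high in those markers. The GS-KO ERY-I-II libraries, also high in them, lie between 0.886 and 3.60 CPM of Bcl2.

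Mcl1, whose short-lived pro-survival protein is degraded through several ubiquitin ligases, stayed high through the nucleated stages. It was at 196, 207 and 199 CPM in BFU-E and 209.7, 213, 201, 157 and 181 CPM in CFU-E, and the groups overlapped. The log2 fold change of CFU-E over BFU-E was 0.07 ± 0.11 (adjusted p = 0.604) in the stage series and 0.21 ± 0.03 (adjusted p = 5.8e-08) in WT, a small rise that passed the test in WT. With Y-positive libraries alone, the only set in BFU-E, the stage series gave 0.13 and passed (adjusted p = 0.00483). In ERY-I the Y-positive libraries had 380.3, 392 and 369 CPM and the Xist-positive libraries 178, 167, 193 and 171 CPM. The Y-positive ERY-I libraries lay above all CFU-E libraries, whereas the Xist-positive libraries lay within the range of CFU-E. ERY-I over CFU-E was 0.80 ± 0.21 (adjusted p = 0.0076), and the call was lost with Xist-positive libraries alone (0.52, adjusted p = 0.0621), with triplicates summed (0.66, adjusted p = 0.0859) and with library totals (0.46, adjusted p = 0.159).

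Mcl1 was at 135, 125, 185 and 107 CPM in ERY-II, 166, 168, 146 and 151 CPM in ERY-III and 125, 119.7, 57.3 and 65.7 CPM in ERY-IV. Its share of counts then went down, to a lowest, median and highest value of 17.9, 55.6 and 88.2 CPM in ERY-V and to 0, 18.5, 7.28 and 19 CPM in ERY-VI. The ERY-IV libraries all lay below those of ERY-III, and the ERY-VI libraries lay at or near the bottom of the ERY-V range, with 1 library at 0. None of the 4 steps from ERY-II to ERY-VI passed the test for Mcl1 on the TMM scale, where ERY-VI over ERY-V was -0.48 ± 0.66 (adjusted p = 0.702). With library totals that step was -2.19 (adjusted p = 0.0464), and ERY-II over ERY-I turned from 0.48 (adjusted p = 0.156) to -0.94 (adjusted p = 0.0181). On the TMM scale Mcl1 was called higher in ERY-II with Xist-positive libraries alone (0.89, adjusted p = 0.00877). It was also called higher there with libraries under 500 CPM of neutrophil markers (0.95, adjusted p = 0.0171). The direction at this step thus depends on the scaling and on the libraries used.

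Bcl2l1, the third main pro-survival gene and no member of the set, took the opposite course to Bcl2. Its mean level per length was 1.90 ± 0.529 CPM per kilobase in BFU-E and 574 ± 171 in ERY-V (SD, n = 3 and 7). On the same scale Mcl1 stood at 58.6 ± 1.64 and 14.9 ± 7.94, and Bcl2 at 3.63 ± 0.362 and 0.133 ± 0.157 CPM per kilobase. In ERY-I the mean of Mcl1 (77.4 ± 31.9 CPM per kilobase) was above that of Bcl2l1 (34.7 ± 11.4), and in ERY-II Bcl2l1 (194 ± 57.5) was above Mcl1 (40.4 ± 9.75). The log2 fold change of Bcl2l1 was 3.13 ± 0.53 in ERY-I over CFU-E (adjusted p = 0.000494) and 3.94 ± 0.43 in ERY-II over ERY-I (adjusted p = 7.08e-05).

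**Figure D3:**
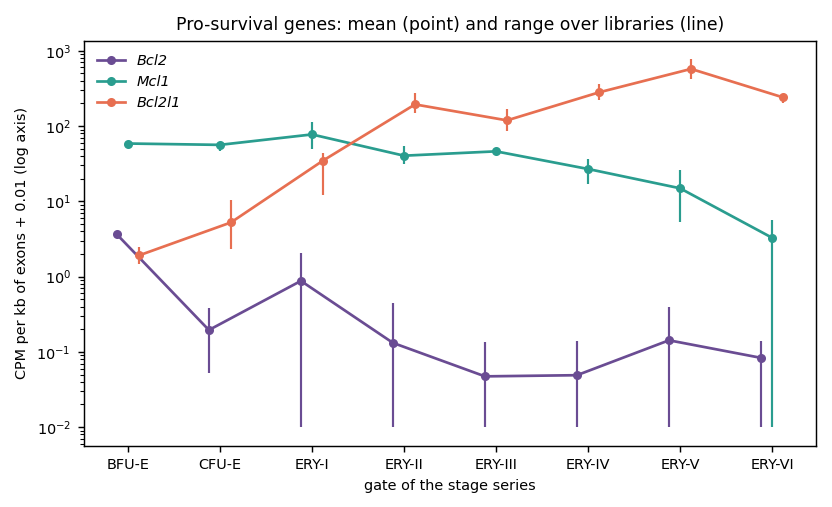
Mean levels of the pro-survival genes Bcl2, Mcl1 and Bcl2l1 over the 8 stage gates, as CPM per kilobase of exon plus 0.01 on a log axis. Points are group means and vertical lines the range over libraries. Mcl1 is the highest of the 3 from BFU-E to ERY-I, Bcl2l1 is the highest from ERY-II to ERY-VI, and Bcl2 is above 1 CPM per kilobase on average in BFU-E only.

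The effectors Bax and Bak1 encode the proteins that form the mitochondrial pore. Bak1 was at 73.9, 66.3 and 68.3 CPM in BFU-E and 88.6, 97.3, 101, 108 and 113 CPM in CFU-E, with every CFU-E library above every BFU-E library. It rose by 0.69 ± 0.14 on the log2 scale (adjusted p = 0.0052) and, in WT, by 0.64 ± 0.05 (adjusted p = 1.15e-20). Bax was at 33.4, 33.6 and 38.3 CPM in BFU-E and 40.5, 36.6, 40.1, 37 and 32.8 CPM in CFU-E, and these ranges overlapped. Its log2 fold change was 0.23 ± 0.11 (adjusted p = 0.138) in the stage series and 0.46 ± 0.08 (adjusted p = 5.53e-07) in WT, where the rise passed the test. With Y-positive libraries alone the stage series gave 0.24 for Bax and passed (adjusted p = 0.019).

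Both effectors were lower in ERY-I than in CFU-E. Bak1 ranged from 39.1 to 73 CPM in the 7 ERY-I libraries (median 67) and Bax from 9.20 to 25.8 CPM (median 20.1). Every ERY-I library lay below every CFU-E library for both genes. The log2 fold changes were -0.41 ± 0.12 for Bak1 (adjusted p = 0.0144) and -0.67 ± 0.16 for Bax (adjusted p = 0.00481). For Bax the call was lost with Xist-positive libraries alone (-0.75, adjusted p = 0.0531).

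In ERY-II, Bak1 stood at 11.4, 9.91, 7.97 and 5.79 CPM and Bax at 3.55, 7.71, 5.15 and 2.37 CPM, again below all ERY-I libraries. Bak1 fell by 1.44 ± 0.15 on the log2 scale (adjusted p = 5.62e-05). Bax, at -0.64 ± 0.28 (adjusted p = 0.0826), missed the threshold and passed it with library totals (-1.98, adjusted p = 0.00113). In ERY-III the levels were 9.83, 14.5, 9.27 and 7.04 CPM for Bak1 and 5.62, 7.58, 4.10 and 5.06 CPM for Bax, and in ERY-IV they were 8.24, 5.27, 3.52 and 3.95 and 2.52, 6.15, 1 and 1.86 CPM. The ERY-II, ERY-III and ERY-IV ranges overlapped for both genes.

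The ERY-V libraries differed among themselves for both effectors. The Y-positive replicates 1 to 3 had 15.1, 21.3 and 1.98 CPM of Bak1 and 7.75, 8.04 and 6.44 CPM of Bax, and the Xist-positive replicates 4 to 7 had 3.44, 4.57, 0 and 3.02 CPM of Bak1 and 0.229, 1.79, 0 and 0 CPM of Bax. For Bax the sets did not overlap, and for Bak1 they did. Neutrophil markers stood at 2759 to 2774 CPM in replicates 1 to 3 and at 9.63, 3436, 117 and 1.51 CPM in replicates 4 to 7, so that replicate 5 had the highest markers and a low Bax level. In the 4 ERY-VI libraries no read was counted for Bak1, which allows up to 0.336 CPM over the group (3 counts). Bax had reads in replicate 2 only (5.68 CPM, 12 counts), the ERY-VI library highest in neutrophil markers (809.5 CPM).

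Among the BH3-only genes, Bcl2l11, whose protein BIM binds all the pro-survival proteins, was highest in CFU-E and ERY-I. It was at 20.5, 19.3 and 22.8 CPM in BFU-E and 69.1, 61.7, 67.8, 38.9 and 54.8 CPM in CFU-E, with no overlap. It rose by 1.62 ± 0.18 on the log2 scale (adjusted p = 0.000328), and by 1.52 ± 0.08 in WT (adjusted p = 2.46e-34). In ERY-I its lowest, median and highest values were 36.8, 59.4 and 82.9 CPM, overlapping CFU-E, and ERY-I over CFU-E was 0.41 ± 0.17 (adjusted p = 0.0569). It fell in ERY-II to 14.6, 17.6, 4.69 and 3.95 CPM, below every ERY-I library, a log2 fold change of -1.35 ± 0.30 (adjusted p = 0.00416).

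Bcl2l11 was at 21.6, 31.7, 21.6 and 8.14 CPM in ERY-III and 23, 19.9, 5.27 and 10.2 CPM in ERY-IV. Same-numbered ERY-II and ERY-III libraries deviated together (r between 0.518 and 0.737, 4 pairs), and with the replicate number as a block Bcl2l11 was higher in ERY-III by 1.02 (adjusted p = 0.0137), against 0.89 ± 0.43 (adjusted p = 0.434) without it. In ERY-V it ranged from 0 to 22.7 CPM (median 5.95), and in ERY-VI it was at 0.294, 4.26, 3.92 and 0 CPM. The ERY-V and ERY-VI ranges overlapped.

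Bid, whose protein is cut by caspase-8 and links death receptors to the mitochondria, followed Bak1. It was at 47, 46.8 and 45.2 CPM in BFU-E and 58.8, 57.4, 58.5, 68.2 and 60.6 CPM in CFU-E, with every CFU-E library higher. It rose by 0.53 ± 0.12 (adjusted p = 0.0102) in the stage series and 0.29 ± 0.07 (adjusted p = 9.83e-05) in WT, on the log2 scale. In ERY-I the 7 libraries spanned 10.2 to 42.3 CPM (median 37.6), all below CFU-E, with replicates 6 and 7 (10.2 and 11.9 CPM) apart from the other 5. The log2 fold change of ERY-I over CFU-E, -0.70 ± 0.26 (adjusted p = 0.0403), lost its call without some of the libraries (adjusted p between 0.0508 and 0.0772) and with Xist-positive libraries alone (-1.11, adjusted p = 0.057).

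Bid fell further in ERY-II, to 3.95, 5.87, 0.937 and 1.05 CPM, a log2 fold change of -2.11 ± 0.49 (adjusted p = 0.00499). It was at 0.281, 4.14, 1.08 and 1.10 CPM in ERY-III and 3.19, 1.46, 1.51 and 1.16 CPM in ERY-IV, too few reads to pass the filter for a test between them. ERY-V had 0.861, 6.62, 7.43, 0, 3.10, 0 and 0.503 CPM, and in ERY-VI no read was counted in any library, with the same upper limit of 0.336 CPM as for Bak1. Of the 8 members, Bak1 and Bid were the ones with 0 reads in all 4 ERY-VI libraries.

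Bbc3, a target of p53 and of FOXO3 whose protein PUMA binds the pro-survival proteins, changed opposite to Bak1 and Bid from BFU-E to ERY-II. Bcl2l11 had the same sign as Bbc3 in ERY-I over CFU-E (0.41, not called). It was at 8.28, 5.94 and 6.48 CPM in BFU-E and 2.40, 3.14, 3.85, 2.70 and 5 CPM in CFU-E, with no overlap. The log2 fold change was -0.89 ± 0.31 (adjusted p = 0.0497), just past the threshold, and the call was lost without any of the BFU-E libraries or any of CFU-E replicates 1 to 4 (adjusted p between 0.0611 and 0.197). WT CFU-E and BFU-E gave -1.002 ± 0.23 (adjusted p = 9.3e-05) from 2.77, 3.09 and 2.76 against 6.52, 4.73 and 7.24 CPM, again without overlap.

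The ERY-I libraries had 6.25, 5.13, 6.22, 2.20, 3.98, 8.57 and 4.29 CPM of Bbc3, which overlapped CFU-E. ERY-I over CFU-E was 1.03 ± 0.38 (adjusted p = 0.0388). Same-numbered libraries of ERY-I and CFU-E deviated together (r between 0.324 and 0.428, 5 pairs), and with the replicate block the difference was 0.61 (adjusted p = 0.144), with library totals 0.62 (adjusted p = 0.147). However, only 1 of the 5 was best matched by its own number. In both gates replicates 1 to 3 were Y-positive and replicates 4 and 5 Xist-positive, so a pairing by number and the library set cannot be told apart. The call was also lost on leaving out any of 8 of the 12 libraries (adjusted p between 0.0539 and 0.103). In ERY-II the levels were 9.08, 4.77, 12.8 and 11.8 CPM, which overlapped ERY-I in replicate 2 of ERY-II (4.77 CPM). ERY-II over ERY-I was 2.32 ± 0.46 (adjusted p = 0.00187), and with library totals 0.88 (adjusted p = 0.0648).

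Bbc3 then stood at 8.99, 6.20, 11.2 and 10.3 CPM in ERY-III and 7.56, 6.15, 16.8 and 14.6 CPM in ERY-IV. The ranges overlapped, and the ERY-IV over ERY-III log2 fold change was 0.998 ± 0.52 (adjusted p = 0.236) without and 0.85 (adjusted p = 0.0403) with the replicate block (same-numbered pairs r between 0.3 and 0.597, 4 pairs). ERY-V ranged from 0.495 to 11.6 CPM (median 4.25) and ERY-VI had 1.18, 0.473, 5.60 and 9.20 CPM. Per length, Bbc3 had the second highest mean of the 8 members after Mcl1 in ERY-II (4.53 ± 1.70), ERY-III (4.32 ± 1.03) and ERY-IV (5.31 ± 2.46 CPM per kilobase, SD, n = 4), but its SD covered the mean of Bak1 in ERY-II (3.65) and ERY-III (4.22).

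Pmaip1, whose protein NOXA binds chiefly MCL1, was low throughout. In ERY-I it had 3.63, 4.65 and 2.16 CPM in the Y-positive replicates and 0.22, 0.468, 0 and 0 CPM in the Xist-positive replicates, without overlap, the same division as Bcl2 and the neutrophil markers. No other stage library exceeded 0.878 CPM. In CFU-E it was at 0, 0.143, 0.0962, 0 and 0 CPM, and ERY-V had reads in replicates 1 and 5 alone (0.861 and 0.815 CPM). The gene lies at chr18:66458533-66465565 (plus strand). It did not pass the count filter in any of the 7 stage steps. Of the alternatives that tested it in ERY-I against CFU-E, DESeq2 (adjusted p = 0.00322), edgeR without the filter (0.016), the replicate block (0.000925) and the Y-positive libraries alone (3e-09) called it higher in ERY-I, and no alternative called it in another stage step. No fold is given against so few CFU-E counts.

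Counted over the members that passed the filter, the changes sat in the first 3 steps. In CFU-E against BFU-E edgeR called 5 of 7 members (3 higher, 2 lower), where 37.3% of all genes tested were called, 18.2% higher and 19.1% lower. In ERY-I against CFU-E it called 5 of 7 (2 higher, 3 lower), beside 46.4% of all genes (25.4% higher, 20.9% lower), with 6 under the replicate block, and in ERY-II against ERY-I 4 of 7 (1 higher, 3 lower), beside 45.3% of all genes (20.2% higher, 25.1% lower). With triplicates summed, no member was called in CFU-E against BFU-E and 2 in ERY-I against CFU-E. The median log2 fold changes of the tested members were 0.23, 0.41 and -1.35, beside -0.01, 0.05 and -0.35 for all genes.

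No member was called by edgeR in the 4 later steps, with 5, 5, 6 and 4 members tested and none at an unadjusted p under 0.05. The shares of all genes called there were 0.185% in ERY-III against ERY-II, 13.6% in ERY-IV against ERY-III, 8.83% in ERY-V against ERY-IV and 7.83% in ERY-VI against ERY-V. DESeq2 called 1 member in ERY-VI against ERY-V and none in the other 3 steps. With the replicate block, 1 member was called in ERY-III against ERY-II (Bcl2l11) and 1 in ERY-IV against ERY-III (Bbc3). A member whose groups are all low is filtered out, so these counts do not speak for the whole set.

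The WT gates of the knockout series gave a tighter spread and more calls. WT CFU-E against WT BFU-E called 7 of 7 members tested (5 higher, 2 lower), beside 70.5% of all genes (34.5% higher, 36.0% lower). In WT ERY-I-II against WT CFU-E edgeR called 5 of 6 (3 higher, 2 lower), beside 81.8% of all genes (39.9% higher, 41.9% lower). Bcl2l11 rose by 0.73 ± 0.06 (adjusted p = 3.27e-14), Bid fell, at -0.38 ± 0.08 (adjusted p = 7.01e-05), and Bbc3 rose by 0.93 ± 0.27 (adjusted p = 0.00163, and 0.0765 with library totals). Bax fell, at -0.23 ± 0.09 (adjusted p = 0.0145), Bak1 did not pass (-0.10 ± 0.05, adjusted p = 0.0665), and Mcl1 rose by 0.31 ± 0.04, which turned to -0.12 with library totals (adjusted p = 0.00421). Bcl2 had 1 count in the 3 WT ERY-I-II libraries together and did not pass the filter, and where an alternative tested it, it was called lower (adjusted p between 1.42e-05 and 0.00163).

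WT ERY-III-VI against WT ERY-I-II called 6 of 6 (2 higher, 4 lower), beside 73.4% of all genes (35.3% higher, 38.1% lower). Bak1 went from 74.1, 78.1 and 77.7 to 19.4, 22.7 and 26.3 CPM and Bid from 33.8, 33.2 and 29.3 to 7.61, 6.45 and 7.96 CPM, both without overlap, at -1.06 ± 0.10 and -1.43 ± 0.16 on the log2 scale. Bbc3 rose from 4.38, 3.85 and 4.04 to 11.3, 7.04 and 10.7 CPM, at 1.95 ± 0.25 (adjusted p = 2.4e-08). The call on Bax (-0.31 ± 0.14, adjusted p = 0.0496) was lost in 7 of 11 alternatives: DESeq2 (adjusted p = 0.16), RLE factors (0.0796), the replicate block (0.0717) and 4 of the 6 that left out 1 library (0.0722 to 0.194). That on Mcl1 (0.77 ± 0.05) was lost with library totals (0.05, adjusted p = 0.28). WT ERY-V-VI against WT ERY-III-VI called 1 of 6, Bid, at -2.20 ± 0.76 (adjusted p = 0.0424), beside 31.2% of all genes (18.4% higher, 12.9% lower). It was a call lost on leaving out any of 5 of the 6 libraries and resting on 9 counts in WT ERY-V-VI. With library totals 5 of the 6 were called, Mcl1 at -1.14 (adjusted p = 9.45e-07) and Bcl2l11 at -1.03 (adjusted p = 0.00143) in place of 0.01 and 0.12. Over all genes, 5838 of 8025 were called with library totals, 404 higher and 5434 lower.

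The rest of the apoptosis pathway moved in mixed directions over the same stage steps. Of the caspases and apoptosome genes, 3 rose and 1 fell of 14 tested in CFU-E against BFU-E (median 0.44, all genes -0.01), among them Htra2 (0.71 ± 0.14) and Diablo (0.65 ± 0.20), which encode mitochondrial proteins that relieve caspase inhibition. In ERY-I against CFU-E, 3 rose and 7 fell of 14, and in ERY-II against ERY-I 0 rose and 4 fell of 13. With library totals 13 of 13 fell in ERY-II against ERY-I, beside 6987 of all 10327 genes called lower. Casp9, the initiator bound by the apoptosome, rose by 1.26 ± 0.22 on the log2 scale in ERY-I against CFU-E.

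Of the caspase inhibitors, 1 rose and 3 fell of 6 in CFU-E against BFU-E, 3 rose of 6 in ERY-I against CFU-E, and 3 rose of 6 in ERY-II against ERY-I, with none falling in the last pair of steps. With library totals, 0 rose and 4 fell in ERY-II against ERY-I, beside 6987 of 10327 genes called lower. Birc5, which encodes the mitotic protein survivin, rose in all 3 steps (1.44 ± 0.36, 1.56 ± 0.36 and 1.23 ± 0.31), the last of which was -0.04 with library totals (adjusted p = 0.886), and Birc3, an inhibitor of apoptosis of the NF-kappaB pathway, fell in CFU-E against BFU-E (-1.63 ± 0.26). Of the death receptor genes, 2 of 5 fell in CFU-E against BFU-E, led by the TNF receptor gene Tnfrsf1a (-3.04 ± 0.30). In ERY-I against CFU-E Tnfrsf1a rose by 3.95 ± 1.30, where the neutrophil markers also rose, and its part from other cells was not tested. The adaptor gene Fadd fell by 0.72 ± 0.18 in ERY-I against CFU-E and 1.94 ± 0.61 in ERY-II against ERY-I.

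Regulators of the members changed in both directions. Of 13 tested, 4, 8 and 6 rose and 1, 2 and 2 fell in the 3 steps in order, with medians of 0.28, 0.89 and 0.56 beside -0.01, 0.05 and -0.35 for all genes. With library totals 2 rose and 8 fell in ERY-II against ERY-I, beside 6987 of 10327 genes called lower. Foxo3, a transcription factor known to drive Bcl2l11 and Bbc3, fell in CFU-E (-0.86 ± 0.17) and rose in ERY-I (2.16 ± 0.28) and ERY-II (2.19 ± 0.30). Trp53, which encodes p53, fell in ERY-I (-0.91 ± 0.10) and ERY-II (-0.80 ± 0.13). Vdac2, whose outer membrane channel holds BAK in place, rose in CFU-E (0.997 ± 0.28) and fell in ERY-I (-0.84 ± 0.25) and ERY-II (-1.28 ± 0.24). Of the other BCL2 relatives, 0, 3 and 2 rose and 1, 1 and 2 fell of 8, 7 and 8, with Bnip3l, the receptor for mitochondrial clearance in reticulocytes, rising by 1.60 ± 0.26 in ERY-I and 3.36 ± 0.33 in ERY-II.

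In the knockout series Glul was examined first. It was at 122 CPM in WT and 98.8 CPM in GS-KO BFU-E libraries, a log2 fold change of -0.29 ± 0.05 (adjusted p = 1.26e-05). The difference widened over the gates, to -1.26 ± 0.06 in CFU-E and -2.77 ± 0.10 in ERY-I-II, then to -3.22 ± 0.09 in ERY-III-VI and -4.73 ± 0.09 in ERY-V-VI. In BFU-E most Glul RNA therefore remained in the libraries labelled GS-KO.

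Neutrophil, B cell and monocyte markers separated the genotypes in all 5 gates. The 9 neutrophil markers summed to 26.7 to 36.4, 25.9 to 29, 108 to 116, 252 to 255 and 608 to 654 CPM in WT and to 7024 to 7102, 4314 to 4388, 6183 to 6284, 9923 to 10002 and 13362 to 13528 CPM in GS-KO, from BFU-E to ERY-V-VI. All 9 neutrophil and all 9 B cell markers were higher in every GS-KO library than in every WT library of each gate, and no neutrophil marker was at 0 over a group. Of the B cell markers, Cd79b, Ebf1 and Ms4a1 were at 0 in WT CFU-E, Ms4a1 in WT ERY-I-II, and Ms4a1 and Spib in WT ERY-V-VI. Of the 10 monocyte and macrophage markers measured, 9 or 10 were higher in the same way, with sums of 243 to 254 CPM in GS-KO CFU-E, the lowest gate, against 4.21 to 5.88 CPM in WT. Other lists were less uniform. From 2 to 5 of 8 T and NK cell markers and 3 to 5 of 5 mast cell and basophil markers were higher in this way. Of 6 megakaryocyte and platelet markers 1 to 4 were higher, with 1 lower in ERY-III-VI. Of 8 erythroid markers 6 were higher and 2 lower in BFU-E, against 2 and 6 in ERY-V-VI. Globin RNA in ERY-V-VI was 19.6 to 19.8% of counts in WT and 7.69 to 7.81% in GS-KO. In the earlier gates it was higher in GS-KO. Its median share in WT and GS-KO was 0.001% and 0.079% in BFU-E and 0.002% and 0.063% in CFU-E. It was 1.38% and 2.95% in ERY-I-II and 4.75% and 5.73% in ERY-III-VI. The neutrophil, B cell and globin shifts held for every library of the genotype. The genotype and a change in the cells within the gate therefore cannot be told apart for any member or pathway gene described next.

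Bcl2 was higher in GS-KO in all 5 gates. In BFU-E it was at 29.9, 27.9 and 29.2 CPM in WT and 38.2, 44 and 44.2 CPM in GS-KO, and in CFU-E at 0.722, 1.41 and 2.40 and 11.8, 11.5 and 9.43 CPM. Every GS-KO library was above every WT library in both gates. The log2 fold changes were 0.55 ± 0.09 in BFU-E (adjusted p = 4.73e-06) and 2.81 ± 0.24 in CFU-E (adjusted p = 4.71e-11).

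In ERY-I-II, WT had 0.157, 0 and 0 CPM of Bcl2 (1 count in all) and GS-KO 0.886, 3.60 and 3.37 CPM (38 counts), too few for the filter, and where an alternative tested it, it was called higher in GS-KO (adjusted p between 1.45e-08 and 5.25e-05). In ERY-III-VI the values were 0.521, 0.119 and 0.597 CPM in WT and 6.12, 4.48 and 6.05 CPM in GS-KO, and in ERY-V-VI 0, 0.958 and 0.423 and 14.2, 12.1 and 12.2 CPM. The genotypes did not overlap in any of these gates. Bcl2 was higher in GS-KO by 3.62 ± 0.50 in ERY-III-VI (adjusted p = 1.12e-08) and 3.59 ± 0.75 in ERY-V-VI (adjusted p = 0.00112) on the log2 scale. By gate, GS-KO CFU-E had 9.43 to 11.8 CPM of Bcl2 at 4314 to 4388 CPM of neutrophil markers. ERY-I-II had 0.886 to 3.60 at 6183 to 6284, ERY-III-VI 4.48 to 6.12 at 9923 to 10002, and ERY-V-VI 12.1 to 14.2 at 13362 to 13528. The gates thus did not rank alike on Bcl2 and on the markers. The Y-positive ERY-I libraries of the stage series had 12.9 to 18.8 CPM at 13619 to 14004 CPM of those markers. The share of the Bcl2 difference that came from other cells was not tested.

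**Figure D4:**
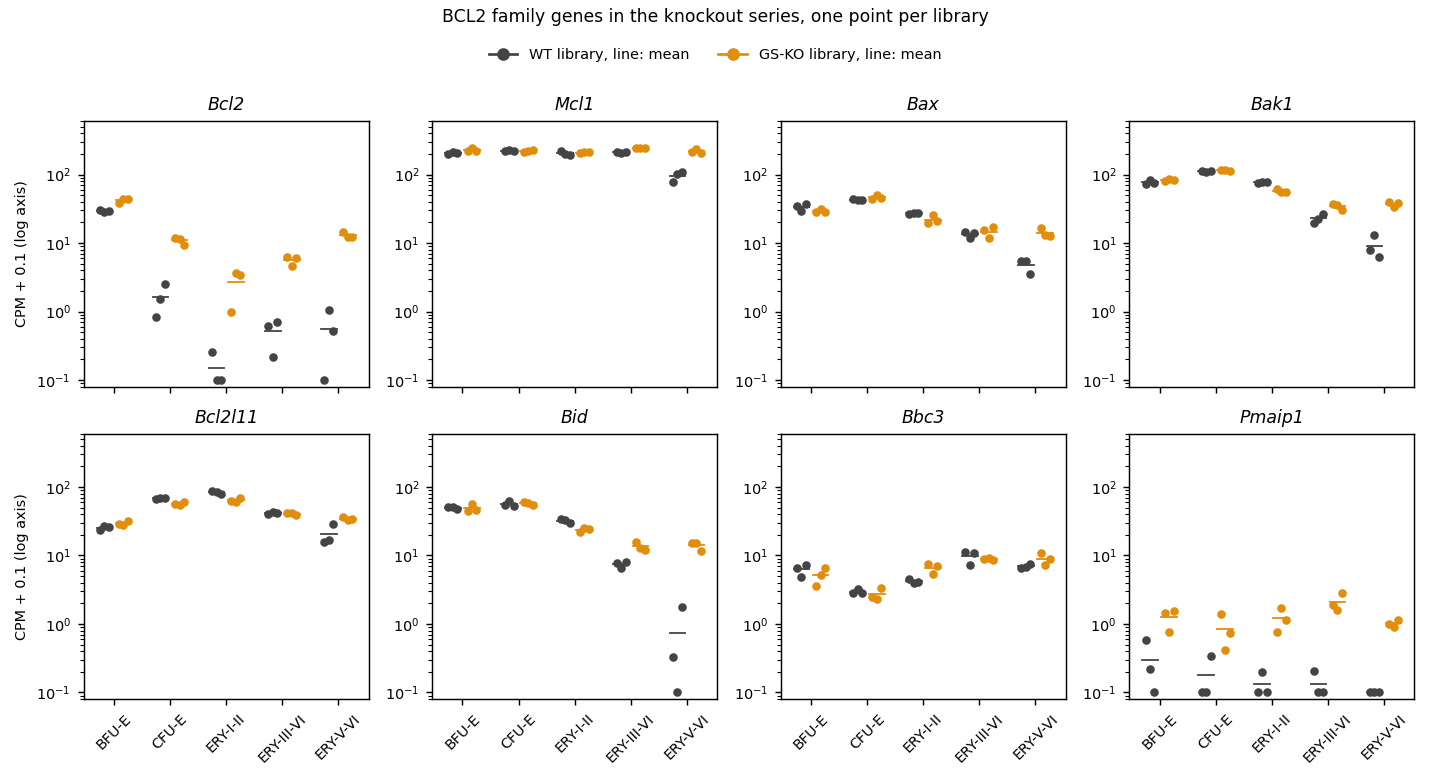
Levels of the 8 members in the 30 knockout-series libraries, as CPM plus 0.1 on a log axis, WT in grey and GS-KO in orange for 5 gates, with the group mean as a line. The GS-KO libraries lie above WT for Bcl2 and Pmaip1 in every gate, and Bid in ERY-V-VI separates from 0 to 1.69 CPM in WT to 11.7 to 15.3 CPM in GS-KO.

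Mcl1 differed little between genotypes. It was at 201, 214 and 209 CPM in WT and 224, 245 and 222 CPM in GS-KO BFU-E, without overlap, and rose by 0.16 ± 0.04 (adjusted p = 0.00156). In CFU-E (-0.02 ± 0.03) and ERY-III-VI (0.05 ± 0.04) it did not pass the test, and in ERY-I-II it was called at 0.14 ± 0.05 (adjusted p = 0.00723), a call lost with library totals (0.03, adjusted p = 0.664), without WT replicate 2 (adjusted p = 0.0598) and without WT replicate 3 (adjusted p = 0.081). In ERY-V-VI its share of counts went from 77.3, 103 and 110.1 CPM in WT to 210.5, 237 and 206 CPM in GS-KO. On the TMM scale this was -0.12 ± 0.12 (adjusted p = 0.435) and with library totals 1.17 (adjusted p = 4.82e-07), where all genes together had a median of 0.15 on the first scale and 1.44 on the second. The direction of Mcl1 in that gate thus depends on the scaling, as does that of Bcl2l11 below.

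Of the effectors, Bak1 was called in 3 gates and Bax in none. Bak1 was at 74.1, 78.1 and 77.7 CPM in WT and 62.2, 56.5 and 56.2 CPM in GS-KO ERY-I-II, where it fell by 0.28 ± 0.08 on the log2 scale (adjusted p = 0.00323). In ERY-III-VI it was at 19.4, 22.7 and 26.3 and 37.3, 35.9 and 30.6 CPM and rose by 0.47 ± 0.13 (adjusted p = 0.00148). The genotypes did not overlap in either gate. In ERY-V-VI it was at 7.71, 13.1 and 6.13 and 39.6, 33.8 and 38.2 CPM and rose by 0.79 ± 0.30 (adjusted p = 0.047), a call lost on leaving out any of 5 of the 6 libraries. In BFU-E (0.12 ± 0.06) and CFU-E (0.05 ± 0.04) Bak1 did not pass.

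Bax was at 5.37, 5.43 and 3.38 CPM in WT and 16.7, 13.2 and 12.6 CPM in GS-KO ERY-V-VI, without overlap in these shares of counts. After TMM scaling the log2 fold change was 0.29 ± 0.41 (adjusted p = 0.602), and with library totals 1.58 (adjusted p = 0.00277). In the other gates it was -0.18 ± 0.10, 0.11 ± 0.07, -0.19 ± 0.13 and -0.02 ± 0.18, from BFU-E to ERY-III-VI, none past the threshold.

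Bcl2l11 was lower in GS-KO in the middle gates. In CFU-E it was at 66.3, 68.9 and 68.5 CPM in WT and 56.1, 54 and 60.6 CPM in GS-KO, and in ERY-I-II at 86.9, 84.9 and 78.4 and 63.1, 61.3 and 67.9 CPM, with no overlap in either. It fell by 0.25 ± 0.06 (adjusted p = 0.00164) and 0.26 ± 0.08 (adjusted p = 0.00414) on the log2 scale. The other gates did not pass, at 0.22 ± 0.10 in BFU-E, -0.20 ± 0.10 in ERY-III-VI and -0.54 ± 0.26 in ERY-V-VI (adjusted p = 0.103). The last turned to 0.75 with library totals (adjusted p = 0.0158), with 15.4, 16.6 and 28.5 CPM in WT and 36.5, 33.3 and 33.4 CPM in GS-KO.

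Bid changed in opposite directions along the gates. It was at 33.8, 33.2 and 29.3 CPM in WT and 21.9, 25.2 and 24 CPM in GS-KO ERY-I-II, and fell by 0.32 ± 0.12 (adjusted p = 0.03), a call lost on leaving out any of 4 of the 6 libraries (adjusted p between 0.0516 and 0.111). In ERY-III-VI it was at 7.61, 6.45 and 7.96 and 15.6, 12.7 and 12.1 CPM and rose by 0.74 ± 0.21 (adjusted p = 0.00193). In ERY-V-VI, WT had 0.234, 0 and 1.69 CPM (9 counts in all) and GS-KO 15.3, 14.9 and 11.7 CPM, a rise of 2.97 ± 0.73 (adjusted p = 0.00374). No gate from ERY-I-II on showed overlap between genotypes, while BFU-E (-0.02 ± 0.08) and CFU-E (0.01 ± 0.07) did not pass the test.

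Bbc3 was called in ERY-I-II alone, at 4.38, 3.85 and 4.04 CPM in WT and 7.31, 5.21 and 6.94 CPM in GS-KO, without overlap. It rose by 0.78 ± 0.28 (adjusted p = 0.0196), and lost the call without WT replicate 2, GS-KO replicate 1 or GS-KO replicate 3 (adjusted p between 0.0649 and 0.0877). In ERY-V-VI it was at -0.94 ± 0.42 (adjusted p = 0.0851), with overlapping shares of 6.54, 6.71 and 7.40 CPM in WT and 10.6, 7.06 and 8.88 CPM in GS-KO. BFU-E (-0.31 ± 0.24), CFU-E (-0.09 ± 0.26) and ERY-III-VI (-0.30 ± 0.22) did not pass.

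Pmaip1 had 4, 2, 1, 1 and 0 counts in all 3 WT libraries together, from BFU-E to ERY-V-VI, and 28, 21, 16, 40 and 19 counts in GS-KO. In ERY-III-VI the GS-KO libraries had 1.78, 1.49 and 2.69 CPM and WT 0.104, 0 and 0 CPM. Every GS-KO library was above every WT library in all 5 gates. In ERY-III-VI it passed the filter and was called higher in GS-KO (adjusted p = 7.82e-06). Where alternatives tested it in the other gates, it was called higher in 5 of 7 in BFU-E, 1 of 2 in CFU-E, 2 of 2 in ERY-I-II and 0 of 1 in ERY-V-VI. No fold is given against so few WT counts. In WT ERY-V-VI its 0 counts allow up to 0.247 CPM over the group.

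**Figure D5:**
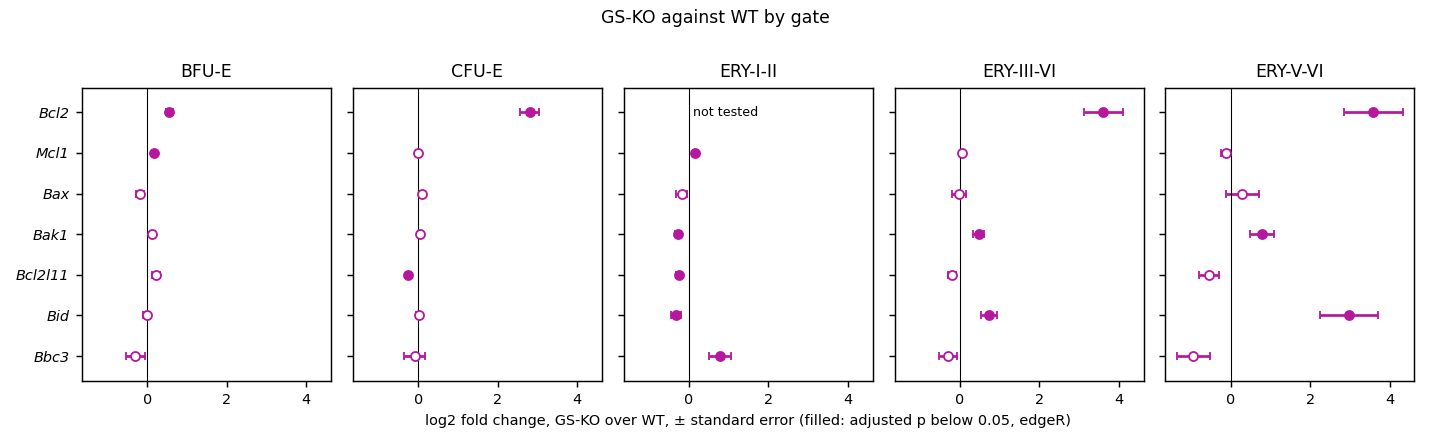
Log2 fold change of GS-KO over WT with its SE from edgeR for 7 members (Pmaip1 left out for its low WT counts) in 5 gates. Filled points have an adjusted p below 0.05, and Bcl2 in ERY-I-II did not pass the count filter and has no point. Bcl2 reaches 3.62 in ERY-III-VI and 3.59 in ERY-V-VI, Bid goes from -0.32 in ERY-I-II to 2.97 in ERY-V-VI, and most other points lie within 1 of 0.

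Counting by gate, edgeR called 2 of 7 members in BFU-E (Bcl2 and Mcl1, both higher), beside 24.0% of all genes (15.4% higher, 8.56% lower). In CFU-E it called 2 of 7 (Bcl2 higher, Bcl2l11 lower), beside 29.4% (17.9% higher, 11.5% lower). In ERY-I-II the count was 5 of 6, with Mcl1 and Bbc3 higher and Bcl2l11, Bak1 and Bid lower, beside 40.3% (22.9% higher, 17.5% lower). The 4 of 8 called in ERY-III-VI were Bcl2, Bak1, Bid and Pmaip1, all higher, beside 55.9% (31.4% higher, 24.5% lower). The 3 of 7 called in ERY-V-VI were Bcl2, Bak1 and Bid, all higher, beside 42.9% (22.4% higher, 20.5% lower). The medians over tested members were 0.12, 0.01, -0.23, 0.26 and 0.29, beside -0.01, 0.00, -0.01, 0.05 and 0.15 for all genes. With library totals, ERY-V-VI gave 6 of 7 members called, beside 7573 of 9403 genes.

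Whether the genotype difference itself differed between gates was tested with the 4 interaction terms over all 30 libraries. It did for 6 of the 8 members, where 61.2% of all genes did. The adjusted p was 5.34e-10 for Bcl2, 2.48e-07 for Bid, 0.000153 for Bak1, 0.00133 for Mcl1, 0.00168 for Bcl2l11 and 0.00224 for Bbc3. Bax (0.331) and Pmaip1 (0.62) did not pass. With library totals Bax passed (adjusted p = 4.15e-07) and Bbc3 did not (0.114).

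In the surrounding pathway, every call on a death receptor gene was in the direction of higher RNA in GS-KO, apart from 1 lower call in ERY-I-II with library totals. Of the death receptor genes 2 of 5, 1 of 5, 2 of 4, 1 of 4 and 2 of 4 rose, from BFU-E to ERY-V-VI, and none fell. Tnfrsf1a rose in all 5 gates, by 0.78 ± 0.12, 2.73 ± 0.20, 4.78 ± 0.41, 5.20 ± 0.37 and 3.50 ± 0.68. Of the 6 caspase inhibitors 2, 2, 3, 2 and 2 rose and 0, 1, 0, 2 and 2 fell, with Cflar, an inhibitor of caspase-8 activation, among those that rose (0.33 ± 0.08 in BFU-E and 1.10 ± 0.15 in ERY-III-VI). Tnfrsf1a and Cflar are also expressed by myeloid cells, and the part of the myeloid transcripts given above was not tested.

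Caspases and apoptosome genes changed in both directions from BFU-E to ERY-V-VI, with 0, 3, 1, 3 and 1 higher and 2, 1, 6, 1 and 0 lower of 14, 14, 13, 13 and 13 tested. With library totals ERY-V-VI gave 13 of 13 higher, and the caspase inhibitors 6 of 6 higher. Over all genes, 7209 of 9403 were called higher there with library totals and 364 lower. Casp8, which cuts BID, rose in CFU-E (0.30 ± 0.07), ERY-I-II (0.31 ± 0.11, a call lost with library totals) and ERY-III-VI (0.70 ± 0.13). Of 13 regulators, 6 rose and 4 fell in ERY-I-II, 2 rose and 8 fell in ERY-III-VI, and 1 rose and 6 fell in ERY-V-VI, where Foxo3 (-1.75 ± 0.05) and March5 (-1.58 ± 0.07), a ubiquitin ligase of the mitochondrial surface, were lower. With library totals the ERY-V-VI count was 10 higher and 2 lower, the ERY-III-VI count 2 and 4, and the ERY-I-II count 2 and 4. BFU-E and CFU-E had 1 higher and 1 lower, and 0 higher and 1 lower. Among the other relatives Bcl2l1 rose in BFU-E (1.78 ± 0.14), CFU-E (1.37 ± 0.12) and ERY-I-II (1.69 ± 0.04), was at 0.01 ± 0.03 in ERY-III-VI and fell in ERY-V-VI (-2.78 ± 0.03), together with Bnip3l there (-2.80 ± 0.03). Globin RNA was likewise higher in GS-KO in BFU-E, CFU-E and ERY-I-II and lower in ERY-V-VI. In ERY-III-VI the 2 differed, with globin higher in GS-KO (median 5.73% against 4.75% of counts) and Bcl2l1 unchanged. The part of later erythroid cells in the Bcl2l1 differences was not tested.

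Genes whose course over the 8 stage means was most like that of a member were found among 10439 genes reaching 5 CPM, by Pearson r of log2(CPM + 1). The points share their libraries and scaling, so r is a description. Bcl2 was most like Bcl9l (r = 0.998 over the 8 stage means, 0.978 over the 10 knockout-series means), Mcl1 most like Gtpbp1 (0.999 and 0.787) and Bcl2l11 most like Osgepl1 (0.991 and 0.969). Bax was most like Med10 (0.999 and 0.987), Bak1 most like Narfl (0.998 and 0.979) and Bid most like Llph (0.998 and 0.961). For Bbc3 the nearest gene was Ier3, at 0.993 over the stages but 0.562 in the knockout series, and for Pmaip1 it was Col1a2, at 0.96 and 0.182. The likeness thus carried over to the knockout series for Bcl2, Bcl2l11, Bax, Bak1 and Bid, and less for Mcl1, Bbc3 and Pmaip1.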

How the data were processed

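The deposited values are whole-number read counts per gene symbol. Per the submitters' processing notes the authors aligned reads with STAR 2.5.2b to mm10 and counted them with HTSeq, and no source used here states the annotation or the strand setting. The counts were used unchanged, with libraries grouped by the gate and genotype in their titles. Levels are CPM by library total. Each of 17 comparisons was fitted on its own libraries (the interaction on all 30) over the genes that passed filterByExpr (at least 10 counts in enough libraries and a total of 15) with edgeR 4.0.16 in R 4.3.3, using TMM scaling, the quasi-likelihood F test and Benjamini-Hochberg adjustment (threshold 0.05). The SE was taken as the fold change divided by the root of its F statistic. The fit was tested on simulated counts. Alternatives were DESeq2 1.42.0, RLE factors, library totals, no filter, the replicate number as a block, each library left out, 1 library set alone, and, added after the data were seen, summed triplicates and libraries under 500 CPM of neutrophil markers.

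The members and the gene lists were chosen with earlier results of these data known. Named from each list were up to 2 called genes with the highest and 2 with the lowest fold change per comparison, at 5 CPM or more in a group, and Bcl2l1, Foxo3, Trp53 and Casp8 were also followed across comparisons after their values were seen. Same-numbered libraries deviated together in every pair for ERY-I with CFU-E, ERY-II with ERY-III and ERY-III with ERY-IV, and not elsewhere. The labels do not say what a number marks. Precision is limited by depth: in ERY-VI, 3 counts over the group equal 0.336 CPM, a limit that covers counting error only. If the 3 knockout-series libraries of a group are repeats of 1 sample, no test of genotype is possible. Gene annotation and coding sequences were GENCODE M21 on GRCm38.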

Additional observations from a re-analysis of the deposited data

Results flagged for a closer look

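In 4 of 54 groups of members checked, 1 library stood apart from the rest of its group by Dixon's criterion, which chance meets in about 1 of 20 groups. Bcl2 was at 4.04 CPM in ERY-II replicate 2 (11 counts), with the next library at 0.263 CPM. Bax was at 5.68 CPM in ERY-VI replicate 2 (12 counts), with the other 3 at 0. Bid was at 3.19 CPM in ERY-IV replicate 1 (19 counts), with the next at 1.51 CPM. Pmaip1 was at 0.473 CPM in ERY-VI replicate 2, which is 1 count.

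The difference between GS-KO and WT varied between the 5 gates for 6 members by the test of the interaction terms. The edgeR adjusted p was 5.34e-10 for Bcl2, 0.00133 for Mcl1, 0.00168 for Bcl2l11, 0.000153 for Bak1, 2.48e-07 for Bid and 0.00224 for Bbc3. Bid and Bak1 were lower in GS-KO in ERY-I-II and higher in ERY-III-VI and ERY-V-VI, Bcl2 was higher in every gate tested, and Bcl2l11 was lower in CFU-E and ERY-I-II.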

How the results depend on the processing

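Over 1620 values of members under an alternative, 72 lost a call and 27 gained one. The sign of the fold change turned in 60, of which 54 were called in neither fit (8 with library totals, 46 under other settings). Such uncalled turns include Bcl2 in ERY-I against CFU-E, -2.52 with libraries low in neutrophil markers in place of 2.44, and Bax in ERY-VI against ERY-V, -5.60 without ERY-VI replicate 2 (adjusted p = 0.196) in place of 0.96. The 6 turns with a call in either fit all came from library totals in place of TMM: Mcl1 at -0.94 in ERY-II against ERY-I, -0.12 in WT ERY-I-II against WT CFU-E, -1.14 in WT ERY-V-VI against WT ERY-III-VI and 1.17 in GS-KO against WT in ERY-V-VI, and Bcl2l11 at -1.03 and 0.75 in the last pair of comparisons. Counts of members called moved as follows. In CFU-E against BFU-E (5), triplicates summed gave 0. In ERY-I against CFU-E (5), library totals gave 3, Xist-positive libraries alone 1, triplicates summed 2, and leaving out 1 library 3 to 6. In ERY-III against ERY-II and in ERY-IV against ERY-III (0 each), the replicate block gave 1 and 1. In ERY-VI against ERY-V (0), DESeq2 gave 1 and library totals 1. In WT ERY-V-VI against WT ERY-III-VI (1), library totals gave 5 and leaving out 1 library 0 to 1. In GS-KO against WT, leaving out 1 library gave 3 to 5 in ERY-I-II (5), and library totals gave 6 in ERY-V-VI (3). The cause of these shifts was not tested.

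Where the numbers do not pair the libraries, the replicate block kept each count of members within 1.5 times, and Bak1 in GS-KO ERY-V-VI lost its call (0.82, adjusted p = 0.0644). Counts over all genes also moved. CFU-E against BFU-E had 4031 calls, 7491 with the block, 7304 with Y-positive libraries, 105 with triplicates summed and 2291 at the least without 1 library. ERY-I against CFU-E had 4850, 9092 with Y-positive libraries and 3088 with triplicates summed. ERY-II against ERY-I had 4679 and 7412 with library totals. ERY-III against ERY-II had 14, 244 with DESeq2, 812 with the block, and 0 with RLE factors, library totals or libraries low in neutrophil markers. ERY-IV against ERY-III had 987, 1844 with the block, 655 with library totals, 533 with libraries low in neutrophil markers and 521 at the least without 1 library. ERY-V against ERY-IV had 617, 1441 with DESeq2, 1451 with the block, 1018 without the filter, 406 with Xist-positive libraries, 315 with triplicates summed and 127 to 971 without 1 library. ERY-VI against ERY-V had 394, 674 with DESeq2, 2199 with library totals, 225 with the block, 65 with Xist-positive libraries, 75 with triplicates summed, 0 with libraries low in neutrophil markers and 182 at the least without 1 library. With library totals, WT ERY-V-VI against WT ERY-III-VI went from 2507 to 5838 and GS-KO against WT in ERY-V-VI from 4034 to 7573. Library totals moved the split of calls (higher and lower) from 2660 and 2190 to 1680 and 3563 in ERY-I against CFU-E, from 2091 and 2588 to 425 and 6987 in ERY-II against ERY-I, and from 2110 and 1924 to 7209 and 364 in GS-KO against WT in ERY-V-VI. Along the WT steps the splits became 2865 and 4778 (from 3737 and 3895), 2465 and 6208 (4068 and 4273), 1363 and 6609 (3357 and 3616), and 404 and 5434 (1475 and 1032). In GS-KO against WT they became 1789 and 3196 in ERY-I-II (2279 and 1737) and 3940 and 1347 in ERY-III-VI (3132 and 2444). Depth limits Pmaip1 throughout, and Bcl2, Bak1 and Bid in the late gates.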

Other observations

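Several genes of the pathway outside the 8 members changed in the later stages, where no member was called. Bnip3l, which marks mitochondria for removal, rose by 1.40 ± 0.29 in ERY-IV against ERY-III, 2.33 ± 0.37 in ERY-V against ERY-IV and 2.08 ± 0.33 in ERY-VI against ERY-V on the log2 scale, and with library totals the last was 0.29 and lost its call (adjusted p = 0.376). Bcl2l1 rose by 1.85 ± 0.43 (adjusted p = 0.0182) in ERY-IV against ERY-III and 1.88 ± 0.39 (adjusted p = 0.00957) in ERY-V against ERY-IV. Birc5 fell at the same steps, by 0.71 ± 0.19 (a call lost with library totals, adjusted p = 0.0524) and 1.40 ± 0.29, and Diablo fell in ERY-IV against ERY-III, by 0.99 ± 0.28. The WT gates gave 3.54 ± 0.03 for Bnip3l and 3.36 ± 0.03 for Bcl2l1 in ERY-V-VI against ERY-III-VI, from libraries that the stage series does not share.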
